A study of Mus musculus with 15 samples.

Results

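Apelin, angiopoietin and tip cell genes were followed across mouse hearts as a set of 10 genes: Apln, Aplnr, Angpt1, Angpt2, Tek, Tie1, Esm1, Plvap, Adm and Fscn1. They were found as every probe of the array whose platform symbol is one of these names, which gave 13 of 45281 probes and 10 of 19057 gene symbols. The samples were myocardium, which is heart muscle, from male C57Bl/6J mice of 10 weeks, and each of the 15 was read on 1 Illumina array. VEGF-B+DOX mice (n = 5) had received AAV9-VEGF-B, an adeno-associated virus that carries the growth factor gene Vegfb, and doxorubicin 7 days later. DOX mice (n = 5) had received doxorubicin, an anthracycline chemotherapy drug that can damage the heart, and PBS mice (n = 5) had received saline buffer in its place. All mice were killed 20 hours after the doxorubicin or PBS injection. The labels give no doxorubicin dose, no promoter for the vector and no group with the vector alone, so the vector was seen here only together with the drug. The samples of a group are listed as separate mice.

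Blood vessels grow by sprouting. A tip cell leads each sprout with long filopodia, and stalk cells follow it and form the tube. Endothelial tip cells are known to be rich in Apln, which encodes the secreted peptide apelin, and in Esm1, Angpt2 and Plvap, while the apelin receptor APLNR is known from veins, venous capillaries and stalk cells. The angiopoietins are secreted ligands of the receptor TIE2, the product of Tek. Angiopoietin 1 activates TIE2 and steadies vessels, angiopoietin 2 can oppose it, and TIE1 is an orphan receptor that forms complexes with TIE2. Adrenomedullin, encoded by Adm, is a vasodilator peptide induced by low oxygen, and fascin, encoded by Fscn1, bundles actin filaments in filopodia.

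Promoter sequences are given for 4 members that were higher in VEGF-B+DOX hearts, so that the stretch of DNA before each gene can be read beside its level. RefSeq (GRCm38.p6) had a window of 250 bases before to 50 bases after the transcription start for 6 of the 10 members. The window of Tek is set on a start downstream of the start that RefSeq gives for the whole gene, so most of it lies inside the annotated gene. Those of Tie1 (chr4:118489800-118490099, minus strand), Tek (chr4:94739039-94739338, plus strand), Esm1 (chr13:113209409-113209708, plus strand) and Fscn1 (chr5:142960105-142960404, plus strand) are printed 5′ to 3′. Capitals mark every match, on either strand, to the ETS factor core GGAA, the hypoxia response cores ACGTG and GCGTG, the cyclic AMP response element TGACGTCA and the TATA box TATAAA.
Tie1: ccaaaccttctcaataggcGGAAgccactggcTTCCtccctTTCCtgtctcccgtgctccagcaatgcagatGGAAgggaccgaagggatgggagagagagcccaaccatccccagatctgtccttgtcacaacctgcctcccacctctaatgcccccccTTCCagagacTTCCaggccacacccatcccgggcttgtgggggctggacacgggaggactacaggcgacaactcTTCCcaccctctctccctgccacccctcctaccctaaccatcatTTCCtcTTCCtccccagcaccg
Tek: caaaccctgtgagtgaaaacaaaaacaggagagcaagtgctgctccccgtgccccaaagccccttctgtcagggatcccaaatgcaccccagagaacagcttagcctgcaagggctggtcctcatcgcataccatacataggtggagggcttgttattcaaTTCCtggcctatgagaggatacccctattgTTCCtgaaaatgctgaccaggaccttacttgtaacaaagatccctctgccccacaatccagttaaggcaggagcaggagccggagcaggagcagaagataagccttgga
Esm1: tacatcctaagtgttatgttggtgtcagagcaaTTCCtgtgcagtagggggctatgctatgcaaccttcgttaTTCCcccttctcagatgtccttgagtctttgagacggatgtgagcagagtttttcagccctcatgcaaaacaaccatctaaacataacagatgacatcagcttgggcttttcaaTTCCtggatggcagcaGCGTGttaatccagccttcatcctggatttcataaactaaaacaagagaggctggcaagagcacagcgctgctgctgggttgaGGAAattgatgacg
Fscn1: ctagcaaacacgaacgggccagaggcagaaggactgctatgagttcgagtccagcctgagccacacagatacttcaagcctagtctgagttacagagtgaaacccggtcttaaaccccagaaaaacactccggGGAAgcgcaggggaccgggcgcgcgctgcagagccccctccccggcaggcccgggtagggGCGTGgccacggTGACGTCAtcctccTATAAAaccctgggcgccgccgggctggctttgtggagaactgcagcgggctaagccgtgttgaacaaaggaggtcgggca
ETS factors are transcription factors known to act on many endothelial genes. The window of Tie1 held 9 GGAA matches, that of Esm1 held 4, that of Tek held 2 and that of Fscn1 held 1, and the mean over 32851 promoters of the same length was 3.52. At least 1 GGAA match was present in 96% of those promoters, so its presence sets no gene apart. A hypoxia core was found in Esm1 and Fscn1, and in 43.8% of all promoters. Fscn1 alone among the 4 also held TGACGTCA, found in 1.79% of all promoters, and TATAAA, found in 13.6%, and no match of these motifs overlapped another. Of the windows not printed, Apln held 4 GGAA matches and no hypoxia core, and Adm held 2 GGAA matches and 2 hypoxia cores. A match is a run of letters and not a measured binding site.

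The values are the log2 intensities that the authors deposited, quantile-normalized between arrays, with a median of 6.92 on each array. Dim probes piled up at 6.80, and a probe counted as above background beyond 6.92. A probe was tested when it did so on at least 5 of the 15 arrays, which 24861 probes did. Of the 13 member probes, 9 were tested, 1 for each member except Apln, and 8 of these lay above background on all 15 arrays. That of Angpt1 did so on 14. The values carry an offset, seen in that pile of dim probes, so folds understate the change, most of all for the dimmer probes of Angpt1, Esm1, Adm and Plvap. Folds are log2 differences of group means ± the standard error of 1 limma fit over the 15 arrays, with p-values adjusted by the Benjamini-Hochberg method over all tested probes and a threshold of 0.05. Standard errors of folds had a median of 0.07, and the number of arrays limits the precision.

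The arrays did not all resemble the rest of their group. The second principal component, with 19.3% of the variance, set 4 arrays apart (VEGF-B+DOX 5, DOX 5, PBS 4 and PBS 5). No label names a batch that they share, but they are the last 4 samples in the order of the series. Whether that order matters was not tested. DOX 2 was the highest DOX array for Aplnr, Tie1, Esm1, Adm and Fscn1 and the lowest for Angpt1, Tek and Plvap. Results that turn on these arrays are given with and without them. The Vegfb probe averaged 12.76 ± 0.07 in VEGF-B+DOX, 12.98 ± 0.09 in DOX and 12.95 ± 0.07 in PBS hearts (SD, n = 5 each), and it was lower in VEGF-B+DOX hearts than in DOX hearts (-0.22 ± 0.06, limma, adjusted p = 0.0199) and PBS hearts (-0.19 ± 0.06, adjusted p = 0.0449), with no overlap of arrays. It cannot be said here whether the vector carries its target sequence. The tissue matched its label, since 8 cardiomyocyte markers averaged 13.85 in VEGF-B+DOX, 13.84 in DOX and 13.88 in PBS hearts, far above background.

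In VEGF-B+DOX hearts, the receptor genes Aplnr, Tie1 and Tek, the ligand gene Angpt2, the secreted tip cell marker Esm1 and the filopodial gene Fscn1 were higher than in DOX hearts and also higher than in PBS hearts. Against DOX the largest fold was that of Aplnr, 3.48 times the DOX level, and against PBS it was that of Fscn1, 2.15 times the PBS level, followed by Aplnr with 2.08 times. Angpt1, Plvap and Adm passed in neither comparison. No member passed in DOX against PBS. Of the 9 tested probes, 6 passed in VEGF-B+DOX against DOX, all higher, beside 9.59% of all tested probes passing and 6.42% passing as higher. Against PBS the same 6 probes passed as higher, beside 11.4% of all tested probes passing and 6.72% passing as higher. As lower, 0 of the 9 passed in either comparison, beside 3.17% of all tested probes against DOX and 4.71% against PBS. The VEGF-B+DOX arrays lay wholly above the DOX arrays for 5 members, all called ones but Esm1, beside 5.19% of tested probes, and wholly below them for 0, beside 2.56%. They lay wholly above the PBS arrays for 4, namely Aplnr, Tek, Tie1 and Fscn1, beside 5.46%, and wholly below them for 0, beside 4.24%. The 9 probes had a median fold of 0.43 against DOX and 0.44 against PBS, where the medians of all tested probes were -0.02 and -0.01. Both comparisons use the VEGF-B+DOX arrays, so they are not independent of each other. In bulk tissue, more cells of a type and more RNA per cell cannot be told apart.

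**Figure D1:**
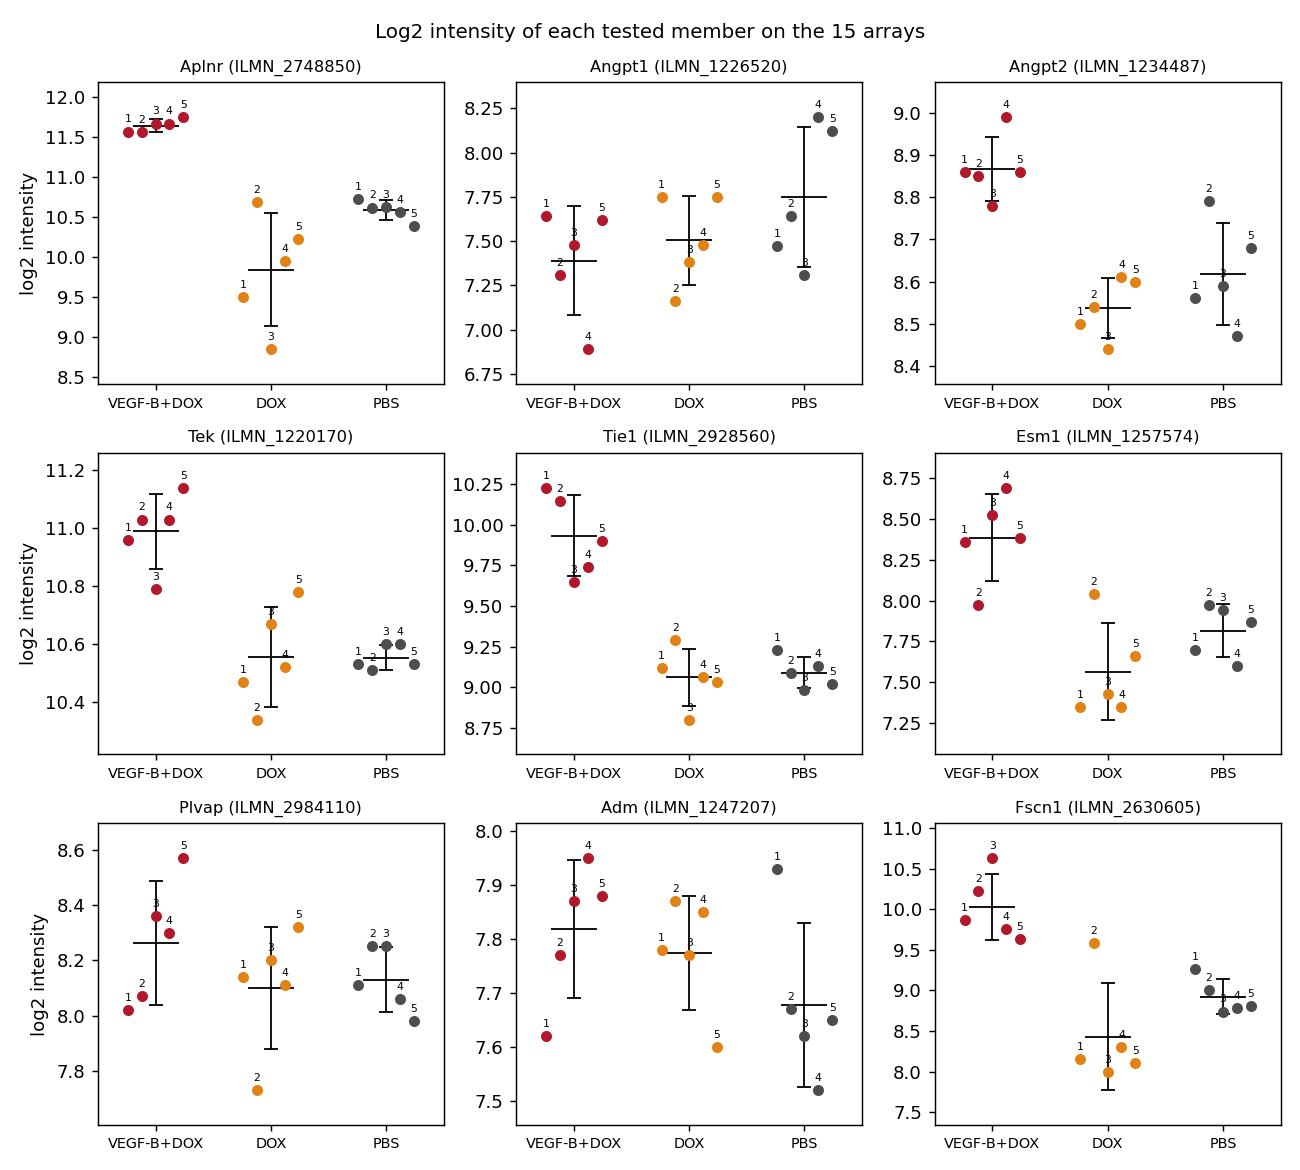
Each panel plots the log2 intensity of 1 tested member on every array, with VEGF-B+DOX, DOX and PBS from left to right, points numbered by replicate and bars for the mean ± SD of 5 arrays. The VEGF-B+DOX points of Aplnr, Tek, Tie1 and Fscn1 lie above all points of both other groups, and DOX 2 stands above the other DOX arrays in Fscn1.

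Aplnr encodes the G protein-coupled receptor for apelin. Its probe ILMN_2748850 read 11.57, 11.56, 11.67, 11.67 and 11.75 on VEGF-B+DOX arrays 1 to 5. It read 9.50, 10.69, 8.85, 9.95 and 10.23 on DOX arrays 1 to 5, and 10.73, 10.62, 10.63, 10.56 and 10.39 on PBS arrays 1 to 5. The VEGF-B+DOX arrays lay close together and above every other array, while the DOX arrays were spread over a wide range that took in 1 array above the PBS median. Means were 11.64 ± 0.08 in VEGF-B+DOX, 9.84 ± 0.70 in DOX and 10.59 ± 0.13 in PBS hearts (SD, n = 5 each). Aplnr rose by 1.80 ± 0.22 against DOX (limma, adjusted p = 2.42e-05), with a 95% interval of 1.34 to 2.26. Against PBS it rose by 1.06 ± 0.22 (adjusted p = 0.00358), with an interval of 0.60 to 1.52. Its fold in DOX against PBS was -0.74 ± 0.22 (adjusted p = 0.18), with a 95% interval of -1.20 to -0.28 before adjustment. These intervals rest on 1 spread shared by the 3 groups, while the DOX arrays varied far more than the others. Without DOX 2, the highest DOX array for Aplnr, the fold in DOX against PBS was -0.95 (limma, adjusted p = 0.0108). Over the 27 alternative fits it lay between -0.95 and -0.49 with adjusted p between 0.01 and 0.413. The 2 rises held in all 27 alternative fits each.

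Apln, the ligand gene of this receptor, could not be compared. Its single probe ILMN_2611906 read 6.69 to 6.79 on VEGF-B+DOX, 6.77 to 6.83 on DOX and 6.76 to 6.90 on PBS arrays. These values lay at the level of the dim probes, and 0 of 15 arrays passed the background limit. The probe gives no level for Apln beyond that bound. Among genes that act beside the pair, 6 of 8 were tested, of which 2 rose and 0 fell against DOX and 3 rose and 1 fell against PBS. Prcp, which encodes a carboxypeptidase that trims apelin, rose against DOX by 1.47 ± 0.11 (limma, adjusted p = 1.63e-07) and against PBS by 1.21 ± 0.11 (adjusted p = 1.81e-06). Gnai2, an inhibitory G protein subunit of the kind APLNR signals through, rose against DOX by 0.59 ± 0.11 (adjusted p = 0.0018) and against PBS by 0.70 ± 0.11 (adjusted p = 0.000425). Arrb2, which encodes a beta-arrestin that takes up activated receptors, rose by 0.34 ± 0.07 against PBS (adjusted p = 0.00532), and its fold against DOX was 0.20 ± 0.07 (adjusted p = 0.105). Mme, the gene of the peptide-degrading enzyme neprilysin, fell by 0.23 ± 0.06 against PBS (adjusted p = 0.017), and its fold against DOX was -0.13 ± 0.06 (adjusted p = 0.235). In DOX against PBS 0 of the 6 passed.

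Tie1 and Tek encode the TIE receptors of endothelial cells. Tie1 (ILMN_2928560) read 10.23, 10.15, 9.65, 9.74 and 9.90 on VEGF-B+DOX arrays 1 to 5. On DOX arrays it read 9.12, 9.29, 8.80, 9.06 and 9.03, and on PBS arrays 9.23, 9.09, 8.98, 9.13 and 9.02. All VEGF-B+DOX arrays stood above all DOX and PBS arrays, which lay in one range. Tie1 rose by 0.87 ± 0.11 against DOX, or 1.83 times (limma, adjusted p = 3.43e-05), and by 0.84 ± 0.11 against PBS, or 1.80 times (adjusted p = 5.89e-05). In DOX against PBS its fold was -0.03 ± 0.11 (adjusted p = 0.964), with a 95% interval of -0.26 to 0.20. Tek (ILMN_1220170) read 10.96, 11.03, 10.79, 11.03 and 11.14 on VEGF-B+DOX arrays, 10.47, 10.34, 10.67, 10.52 and 10.78 on DOX arrays and 10.53, 10.51, 10.60, 10.60 and 10.53 on PBS arrays. The gap was narrow, since the highest DOX array, DOX 5 at 10.78, lay just below the lowest VEGF-B+DOX array at 10.79. Tek rose by 0.43 ± 0.08 against DOX, or 1.35 times (adjusted p = 0.00221), and against PBS by 0.44 ± 0.08 (adjusted p = 0.00209), and in DOX against PBS its fold was 0.00 ± 0.08 (adjusted p = 0.994). The smallest p that an exact two-sided permutation test of 5 against 5 arrays allows is 0.00794, and both receptors reached it in both comparisons. Any 2 groups of 5 that do not overlap reach it, so it restates the lack of overlap and adds no support.

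Within an array, Tie1 minus Tek was -1.06 ± 0.24 in VEGF-B+DOX, -1.50 ± 0.33 in DOX and -1.46 ± 0.12 in PBS hearts (SD, n = 5 each, log2). Its VEGF-B+DOX values of -1.29 to -0.73 did not overlap the PBS values of -1.62 to -1.30, and they overlapped the DOX values of -1.87 to -1.05. Only the change between groups can be read from this difference, since each probe has a brightness of its own. The difference between the 2 folds was not tested.

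Angpt2 encodes the TIE2 ligand made by endothelial cells. Its brighter probe ILMN_1234487 read 8.86, 8.85, 8.78, 8.99 and 8.86 on VEGF-B+DOX arrays 1 to 5. It read 8.50, 8.54, 8.44, 8.61 and 8.60 on DOX arrays and 8.56, 8.79, 8.59, 8.47 and 8.68 on PBS arrays. All VEGF-B+DOX arrays lay above the DOX arrays, while PBS 2 overlapped them. Angpt2 rose by 0.33 ± 0.07 against DOX, or 1.26 times (limma, adjusted p = 0.00578), in every one of 27 alternative fits. Against PBS it rose by 0.25 ± 0.07, or 1.19 times (adjusted p = 0.0292), and this call ended in 8 of 27 alternative fits, with folds from 0.21 to 0.29 and adjusted p from 0.0113 to 0.124 over all 27. Among these 8 were the fits without VEGF-B+DOX 1, 2 or 4 (0.25, 0.25 and 0.22) and without PBS 1, 3 or 4 (0.24, 0.24 and 0.21). A second Angpt2 probe, ILMN_2642165, was above background on 1 of 15 arrays and was not tested.

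Angpt1 encodes the TIE2 ligand that pericytes and other supporting cells make. Its probe ILMN_1226520 read 7.64, 7.31, 7.48, 6.89 and 7.62 on VEGF-B+DOX arrays. On DOX arrays it read 7.75, 7.16, 7.38, 7.48 and 7.75, and on PBS arrays 7.47, 7.64, 7.31, 8.20 and 8.12. The groups overlapped in each comparison, and PBS 4 and PBS 5, which the second component sets apart, were the highest. Its folds were -0.12 ± 0.17 against DOX (limma, adjusted p = 0.769) and -0.36 ± 0.17 against PBS (adjusted p = 0.211), with 95% intervals of -0.48 to 0.25 and -0.72 to 0.00. Among the 11 arrays alike on that component the fold against PBS was -0.14. The probes ILMN_1230114 and ILMN_2606451 were above background on 0 and 1 of 15 arrays. Within an array, Angpt2 minus Angpt1 was 1.48 ± 0.37 in VEGF-B+DOX, 1.03 ± 0.25 in DOX and 0.87 ± 0.43 in PBS hearts, and the groups overlapped.

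Few other genes of the angiopoietin and TIE pathway passed. Of 9 tested, 1 rose and 0 fell against DOX, and 0 passed against PBS or in DOX against PBS. Svep1, an extracellular matrix protein that binds TIE1, was the gene that rose, by 0.47 ± 0.14 against DOX (limma, adjusted p = 0.0375), and its fold against PBS was 0.43 ± 0.14 (adjusted p = 0.0515). Ptprb, the phosphatase VE-PTP that restrains TIE2, had folds of 0.31 ± 0.17 against DOX (adjusted p = 0.313) and 0.48 ± 0.17 against PBS (adjusted p = 0.0785). Grb14, an adaptor gene, had folds of -0.43 ± 0.18 and -0.42 ± 0.18 (adjusted p = 0.157 and 0.149). Itga5, an integrin gene, had folds of 0.37 ± 0.17 and 0.39 ± 0.17 (adjusted p = 0.201 and 0.151). Angpt4 was on the array and too dim to be tested.

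Fscn1 was the tip cell member with the largest fold. Its probe ILMN_2630605 read 9.87, 10.23, 10.63, 9.76 and 9.63 on VEGF-B+DOX arrays 1 to 5. It read 8.16, 9.59, 7.99, 8.30 and 8.11 on DOX arrays and 9.26, 9.01, 8.74, 8.78 and 8.81 on PBS arrays. DOX 2 stood far above the other DOX arrays and close to VEGF-B+DOX 5, and the other 4 DOX arrays lay below all PBS arrays. Fscn1 rose by 1.59 ± 0.24 against DOX, or 3.02 times (limma, adjusted p = 0.000242), and by 1.10 ± 0.24 against PBS, or 2.15 times (adjusted p = 0.00558), and both calls held in all 27 alternative fits. Its fold in DOX against PBS was -0.49 ± 0.24 (adjusted p = 0.507), and -0.78 without DOX 2, its highest DOX array (adjusted p = 0.0187). Over the 27 alternative fits that fold had adjusted p from 0.00219 to 0.777.

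Esm1 encodes endocan, a proteoglycan that sprouting endothelium secretes. Its probe ILMN_1257574 read 8.36, 7.97, 8.52, 8.69 and 8.38 on VEGF-B+DOX arrays. It read 7.35, 8.04, 7.43, 7.35 and 7.66 on DOX arrays and 7.70, 7.97, 7.94, 7.60 and 7.87 on PBS arrays. VEGF-B+DOX 2 lay below DOX 2 and level with PBS 2, and the other 4 VEGF-B+DOX arrays were above all others. Esm1 rose by 0.82 ± 0.14 against DOX, or 1.76 times (limma, adjusted p = 0.000584), and by 0.57 ± 0.14 against PBS, or 1.48 times (adjusted p = 0.0101). With the background subtracted the fold against DOX was 1.10. In the 11 arrays alike on the second component the fold against PBS was 0.52 and missed the threshold (adjusted p = 0.0782, the highest of 27 alternative fits, whose lowest was 0.00309).

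Plvap encodes the protein of the diaphragms that span fenestrae and caveolae of endothelium. Its probe ILMN_2984110 read 8.02, 8.07, 8.36, 8.30 and 8.57 on VEGF-B+DOX arrays, 8.14, 7.73, 8.20, 8.11 and 8.32 on DOX arrays and 8.11, 8.25, 8.25, 8.06 and 7.98 on PBS arrays. The groups lay within one another. Its folds were 0.16 ± 0.11 against DOX (limma, adjusted p = 0.444; 95% interval -0.07 to 0.40) and 0.13 ± 0.11 against PBS (adjusted p = 0.537; -0.10 to 0.37).

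**Figure D2:**
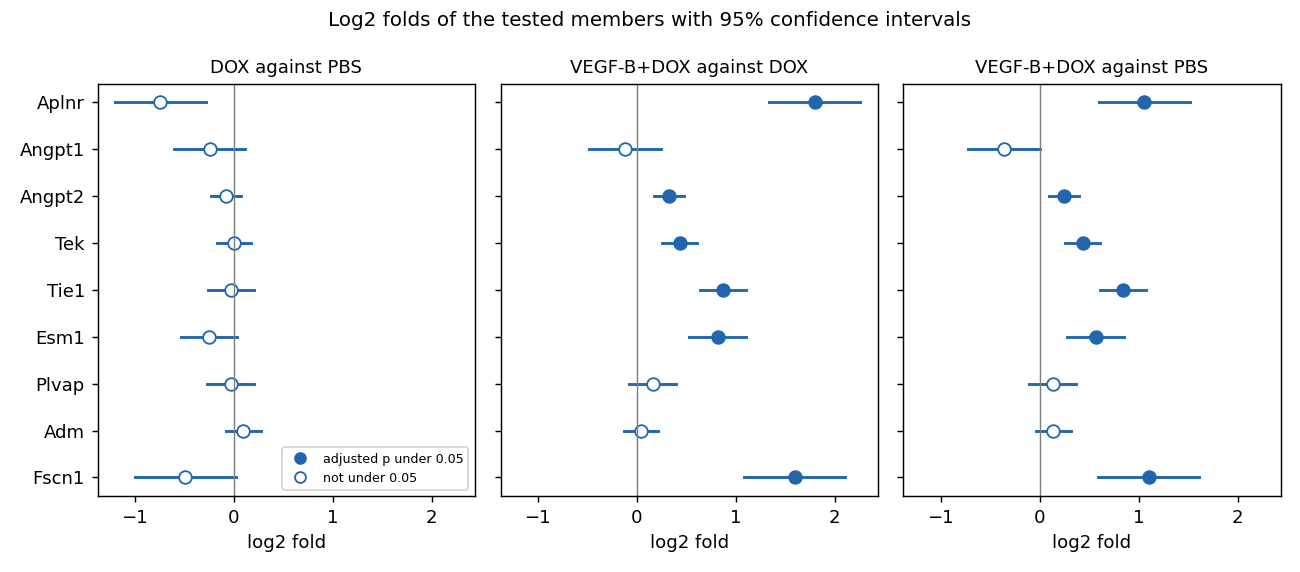
The 9 tested members are plotted by log2 fold with its 95% interval in VEGF-B+DOX against DOX, VEGF-B+DOX against PBS and DOX against PBS, with filled points for an adjusted p under 0.05. Filled points are seen for 6 members in each of the comparisons with VEGF-B+DOX, with the highest at 1.80 for Aplnr, and for 0 members in DOX against PBS.

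Adm encodes adrenomedullin. Its probe ILMN_1247207 read 7.62, 7.77, 7.87, 7.95 and 7.88 on VEGF-B+DOX arrays, 7.78, 7.87, 7.77, 7.85 and 7.60 on DOX arrays and 7.93, 7.67, 7.62, 7.52 and 7.65 on PBS arrays. The 3 groups overlapped. Its folds were 0.04 ± 0.08 against DOX (limma, adjusted p = 0.83; 95% interval -0.13 to 0.22), 0.14 ± 0.08 against PBS (adjusted p = 0.341; -0.04 to 0.32) and 0.10 ± 0.08 in DOX against PBS (adjusted p = 0.764). The receptor for this peptide is made of CALCRL and a RAMP protein, and the RAMP genes did move. Ramp2 rose against DOX by 0.63 ± 0.12 (adjusted p = 0.0016) and against PBS by 0.72 ± 0.12 (adjusted p = 0.000469). Ramp3 rose against DOX by 0.27 ± 0.08 (adjusted p = 0.0342) and against PBS by 0.25 ± 0.08 (adjusted p = 0.0396). Ramp1, which turns CALCRL into a receptor for the related peptide CGRP, fell by 0.37 ± 0.10 against PBS (adjusted p = 0.0186), and its fold against DOX was -0.31 ± 0.10 (adjusted p = 0.053). Calcrl itself was too dim to be tested. Gpr182, an endothelial receptor gene, rose by 0.23 ± 0.07 against PBS (adjusted p = 0.0443), and the scavenger receptor gene Ackr3 had folds of 0.02 ± 0.07 and -0.10 ± 0.07 (adjusted p = 0.929 and 0.404). Over the adrenomedullin list, 2 of 6 tested genes rose and 0 fell against DOX, and 3 rose and 1 fell against PBS.

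Targets of the hypoxia-inducible factor HIF were counted because Adm is one of them. Of 16 tested, 1 rose and 1 fell against DOX, and 2 rose and 4 fell against PBS, with median folds of -0.15 and -0.07. Vegfa, the main growth factor of sprouting, fell by 0.50 ± 0.14 against PBS (limma, adjusted p = 0.03), and its fold against DOX was -0.29 ± 0.14 (adjusted p = 0.258). Egln1, the prolyl hydroxylase that marks HIF for decay when oxygen is present, fell by 0.39 ± 0.10 against PBS (adjusted p = 0.0171), and its fold against DOX was -0.27 ± 0.10 (adjusted p = 0.113). Kdm3a, a histone demethylase gene, rose by 0.27 ± 0.07 against PBS (adjusted p = 0.0161) and had a fold of 0.10 ± 0.07 against DOX (adjusted p = 0.426). P4ha1, a collagen prolyl hydroxylase gene, fell by 0.41 ± 0.11 against DOX (adjusted p = 0.0233) and, set against PBS, fell by 0.37 ± 0.11 (adjusted p = 0.0365). Ndrg1, a stress-induced gene, rose against DOX by 0.31 ± 0.09 (adjusted p = 0.0427) and against PBS by 0.55 ± 0.09 (adjusted p = 0.000713). In DOX against PBS 0 of the 16 passed.

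Genes listed here as other tip cell genes, not all of them particular to tip cells, rose in number. Of 22 tested, 15 rose and 0 fell against DOX, with a median fold of 0.60, and 14 rose and 0 fell against PBS, with a median of 0.58, while 0 passed in DOX against PBS. Col18a1, the collagen that holds endostatin, rose against DOX by 1.69 ± 0.11 (limma, adjusted p = 4.88e-08) and against PBS by 1.46 ± 0.11 (adjusted p = 5.66e-07). Nid2, a basement membrane linker gene, rose by 1.30 ± 0.11 and 1.26 ± 0.11 (adjusted p = 5.96e-07 and 1.36e-06). Pdgfb, the signal by which tip cells draw pericytes, rose by 0.72 ± 0.07 against DOX and by 0.64 ± 0.07 against PBS (adjusted p = 3.41e-06 and 1.39e-05). Col4a2, a basement membrane collagen gene, rose by 1.16 ± 0.11 and 0.96 ± 0.11 (adjusted p = 1.68e-06 and 1.6e-05). Ets1, the gene of an ETS transcription factor, rose by 1.20 ± 0.12 and 0.81 ± 0.12 (adjusted p = 2.06e-06 and 0.000148). Nid1, the paralog of Nid2, rose by 0.81 ± 0.09 and 0.78 ± 0.09 (adjusted p = 7.56e-06 and 1.44e-05). Dll4, the Notch ligand of tip cells, rose by 0.30 ± 0.07 against DOX (adjusted p = 0.0119) and had a fold of 0.15 ± 0.07 against PBS (adjusted p = 0.23). Nrp1, the co-receptor of VEGF, rose by 0.59 ± 0.13 against DOX (adjusted p = 0.00586) and had a fold of 0.29 ± 0.13 against PBS (adjusted p = 0.183). Kdr, the gene of VEGFR2, was read by a probe near background, with folds of 0.08 ± 0.04 and 0.05 ± 0.04 (adjusted p = 0.245 and 0.499).

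Genes of filopodia and actin bundling were counted beside Fscn1. Of 10 tested, 4 rose against DOX and 5 against PBS, 0 fell, and the median fold was 0.25 in both. Actn4, an actin crosslinker gene, rose against DOX by 0.62 ± 0.09 (limma, adjusted p = 0.000151) and against PBS by 0.55 ± 0.09 (adjusted p = 0.000557). Its paralog Actn1 rose by 0.47 ± 0.11 and 0.49 ± 0.11 (adjusted p = 0.0111 and 0.0069). Cdc42, the small GTPase that starts filopodia, rose by 0.42 ± 0.09 against DOX and by 0.33 ± 0.09 against PBS (adjusted p = 0.00674 and 0.0285). Dbn1, which encodes the actin-binding protein drebrin, rose by 0.32 ± 0.06 and 0.24 ± 0.06 (adjusted p = 0.000785 and 0.00677). These 4 genes had the smallest p of the list, and not all of the list moved with Fscn1. Its lowest folds were those of Enah, -0.18 ± 0.22 and -0.25 ± 0.22 (adjusted p = 0.707 and 0.569). Fscn2, the paralog of Fscn1, was read by a probe near background, with folds of -0.02 ± 0.04 and -0.03 ± 0.04 (adjusted p = 0.841 and 0.77).

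**Figure D3:**
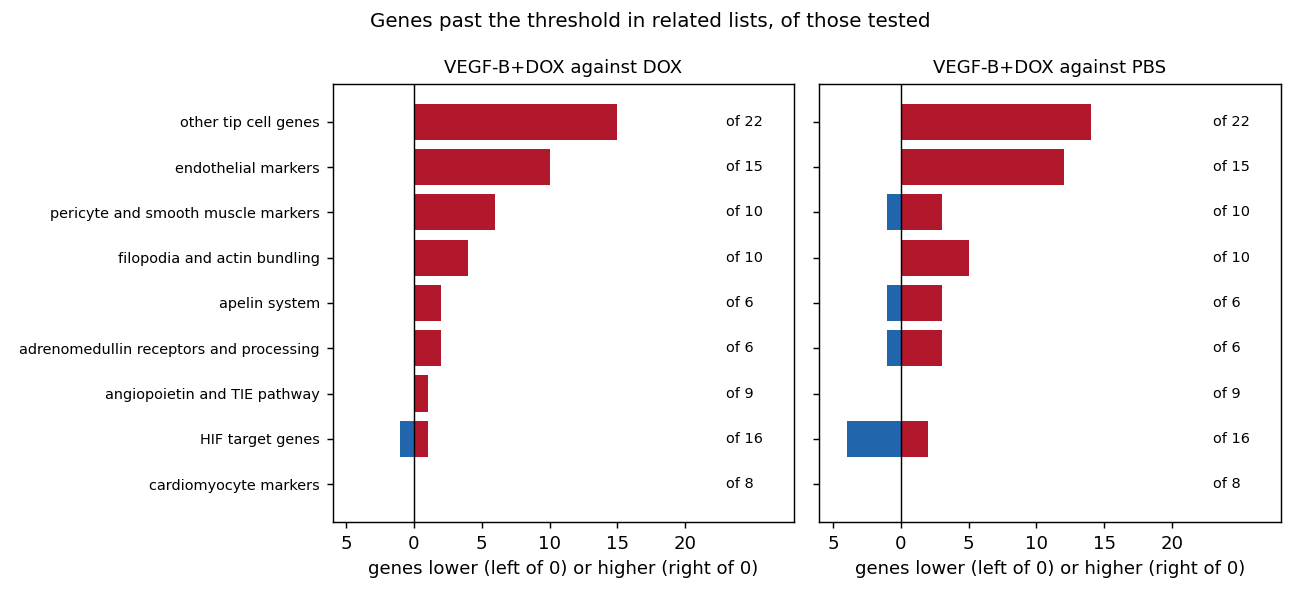
Bars count the tested genes of each list that were lower or higher past the threshold in VEGF-B+DOX against DOX and against PBS. The list of other tip cell genes has the most tested genes and the longest bars. Of its 22 genes, 15 are higher against DOX and 14 against PBS. Of the 15 endothelial markers, 10 are higher against DOX and 12 against PBS, and the cardiomyocyte markers have no bars.

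Markers of several cell types moved in the same comparisons, those of endothelium among them. Of 15 endothelial markers tested, 10 rose and 0 fell against DOX, and 12 rose and 0 fell against PBS, with median folds of 0.59 and 0.81. Their mean level ran from 10.64 to 10.79 on VEGF-B+DOX arrays, from 10.14 to 10.25 on DOX arrays and from 10.04 to 10.19 on PBS arrays, with no overlap between VEGF-B+DOX and the others. All 5 tested markers of dividing cells rose in both comparisons, with median folds of 1.04 and 1.05, and their mean ran from 7.85 to 9.28 on VEGF-B+DOX, from 6.95 to 7.39 on DOX and from 6.96 to 7.20 on PBS arrays. Of these, Cdk1, Aurkb and Top2a were above background on 8, 9 and 10 of 15 arrays. In DOX and PBS hearts they averaged 6.86 to 6.93, around the background limit of 6.92. Probes this dim can be tested through the 5 VEGF-B+DOX arrays where they are high, so the filter had a part in this count. Pericyte and smooth muscle markers rose for 6 of 10 against DOX, with 0 lower, and for 3 of 10 against PBS, with 1 lower. Their mean ran from 9.49 to 9.59 on VEGF-B+DOX, from 9.01 to 9.32 on DOX and from 9.22 to 9.46 on PBS arrays. Cardiomyocyte markers passed for 0 of 8 in each comparison. Those of Myh6, Actc1, Myl2, Tnnc1 and Mb averaged 14.40 to 14.75, near the highest value on any array, 14.93. They had little room to rise on this scale. Lymphatic endothelial markers fell for 2 of 5 against DOX, Prox1 by 0.44 ± 0.09 and Ccl21a by 0.42 ± 0.12 (limma, adjusted p = 0.00484 and 0.0277), while against PBS 1 rose (Lyve1) and 1 fell (Ccl21a). Their mean ran from 8.59 to 8.89 on VEGF-B+DOX, from 8.92 to 9.08 on DOX and from 8.72 to 8.98 on PBS arrays. Against PBS, 2 of 4 neutrophil markers and 2 of 8 macrophage markers rose and 3 of 5 erythroid markers fell, and 0 of these passed against DOX. Fibroblast markers passed for 1 of 7 against DOX (higher) and for 2 of 7 against PBS (1 higher, 1 lower), and 1 of 3 endocardial markers fell in both. The adipocyte markers passed for 0 of 3. The part of these cell types in the members' differences was not tested.

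Members were also set against the endothelial markers within each array, as the member's log2 value minus the mean of the 15 markers, with the PBS mean set to 0. On this scale Aplnr was the only one of the 9 members whose VEGF-B+DOX arrays all lay above those of both other groups. It ran from 0.29 to 0.54 on VEGF-B+DOX, from -1.86 to 0.04 on DOX and from -0.14 to 0.07 on PBS arrays. Fscn1 averaged 0.48 ± 0.44 in VEGF-B+DOX and -0.58 ± 0.68 in DOX hearts, against 0.00 ± 0.17 in PBS hearts, and overlapped both. Tie1 averaged 0.22 ± 0.21 in VEGF-B+DOX, -0.12 ± 0.20 in DOX and 0.00 ± 0.06 in PBS hearts, again with overlap. Esm1 and Tek, which had risen on the plain scale, averaged -0.06 ± 0.30 and -0.19 ± 0.10 in VEGF-B+DOX hearts and overlapped both other groups. Angpt2 ran from -0.45 to -0.26 on VEGF-B+DOX arrays, below its PBS range of -0.14 to 0.15. Plvap, Adm and Angpt1 likewise lay below PBS on all VEGF-B+DOX arrays, by 0.49, 0.49 and 0.99 on average. The marker mean itself was 0.53 higher in VEGF-B+DOX than in DOX hearts and 0.63 higher than in PBS hearts. A gene with no change on the plain scale thus reads lower here by those amounts. A place below PBS on this scale therefore does not show that a member fell. These values depend on the 15 markers chosen and are given as descriptions with no test. The share of all tested probes without overlap was not counted on this scale, so the members cannot be set beside it.

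**Figure D4:**
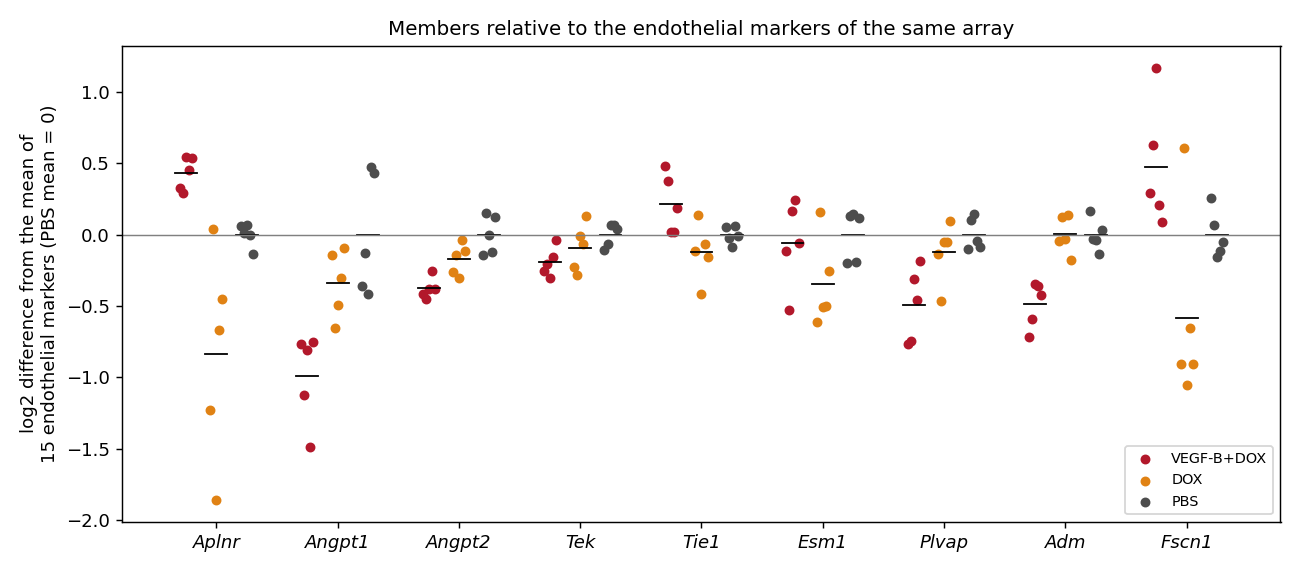
Points show, for each array, the member's log2 value minus the mean of 15 endothelial markers, with the PBS mean of each member at 0, and VEGF-B+DOX, DOX and PBS from left to right. Aplnr lies above 0 on all 5 VEGF-B+DOX arrays, and the VEGF-B+DOX points of Angpt1, Angpt2, Plvap and Adm lie below their PBS points. The marker mean was itself 0.63 higher in VEGF-B+DOX than in PBS hearts.

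Set against PBS, the DOX hearts show the drug without the vector. Of the 9 tested members 0 passed, where 0.322% of all tested probes did. The groups overlapped for all 9, where DOX arrays lay wholly above PBS arrays for 0.981% of tested probes and wholly below for 0.953%. At an unadjusted limma p under 0.05 Aplnr alone of the 9 passed, below PBS. At that mark 2559 of the 24861 tested probes passed in either direction, so 1 member does not set the members apart. Aplnr, Fscn1 and Esm1 had the folds furthest from 0, at -0.74 ± 0.22, -0.49 ± 0.24 and -0.25 ± 0.14 (limma, adjusted p = 0.18, 0.507 and 0.555). The intervals of Angpt2 (-0.23 to 0.07), Tek (-0.17 to 0.18), Tie1 (-0.26 to 0.20), Plvap (-0.27 to 0.21) and Adm (-0.08 to 0.27) leave room for small changes either way. Without DOX 2, Aplnr and Fscn1 passed as lower, and 487 of all tested probes passed in either direction in place of 80. DOX 2 was the highest DOX array for both genes, so leaving it out lowers their DOX means by construction. The member mean by array, relative to PBS, was -0.26, 0.01, -0.40, -0.21 and -0.12 on DOX arrays 1 to 5, and between 0.42 and 0.51 on the VEGF-B+DOX arrays. The mean of DOX 2 lay near 0 because its members stood on both sides of PBS. On DOX 2, Fscn1 (9.59) was above all PBS arrays, while Plvap (7.73) and Tek (10.34) were below all of them. Among cell type markers in this comparison, the neutrophil genes S100a9 and S100a8 rose by 1.34 ± 0.18 and 1.18 ± 0.18 (adjusted p = 0.00921 and 0.0102) and the endothelial marker Ly6c1 rose by 0.73 ± 0.15 (adjusted p = 0.0426). The pericyte marker Kcnj8 fell by 0.35 ± 0.07 (adjusted p = 0.0419), and the other lists of markers held 0 calls. Ly6c1 was the only call among 15 endothelial markers, whose median fold was 0.01. Kcnj8 was the only call among 10 pericyte and smooth muscle markers, whose median fold was -0.17. A single call does not speak for its cell type. The 4 tested neutrophil markers averaged 7.40 to 8.01 on DOX arrays and 6.85 to 7.02 on PBS arrays, and their part in the members' values was not tested.

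Within the sets of arrays that the second component separates, the called members kept their direction. In the 4 arrays set apart, with 1 VEGF-B+DOX, 1 DOX and 2 PBS arrays, folds against DOX were 1.52 for Aplnr, 0.87 for Tie1, 0.36 for Tek, 0.26 for Angpt2, 0.72 for Esm1 and 1.52 for Fscn1. In the other 11 arrays they were 1.87, 0.88, 0.45, 0.35, 0.84 and 1.61 in the same order. Against PBS the 6 folds lay between 0.28 and 1.28 in the 4 arrays and between 0.22 and 1.12 in the 11. The fold of Plvap against PBS was 0.55 in the 4 arrays and -0.02 in the 11. In DOX against PBS that of Aplnr was -0.25 in the 4 arrays and -0.91 in the 11.

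Over the 36 pairs of tested members, the correlation of their deviations from the group means across 15 arrays had a median of 0.03 and was positive for 19. It was above 0.5 for 3 pairs and below -0.5 for 4. It was highest for Aplnr with Fscn1 (0.61) and lowest for Tek with Fscn1 (-0.78). All pairs share the same arrays and their quality, DOX 2 among them. The symbols whose deviations were most like those of Aplnr were Mrps16, Tnfrsf12a and Alpl (r = 0.94, 0.94 and 0.93), and without DOX 2 these were 0.90, 0.89 and 0.87. Those most like Fscn1 were Anxa5, Cdc42ep5 and Wdr1 (r = 0.95, 0.93 and 0.93), which dropped to 0.86, 0.82 and 0.83 over 14 arrays. The top match of Tie1 was Aqp7 (0.89), that of Tek Ubox5 (0.92), that of Esm1 Alg9 (0.91) and that of Plvap Eftud2 (0.95). Adm was most like Sphk1 (0.85), Angpt1 most like Phf20l1 (0.94) and Angpt2 most like Nrxn3 (0.88). Each is the highest of the values over all tested probes with a symbol and are given as descriptions.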

How the data were processed

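Gene expression was measured on 15 Illumina arrays of mouse myocardium, 5 in each of 3 groups taken from the sample titles. TRIsure and NucleoSpin RNA II served to isolate RNA, which was made into biotin-labelled cRNA, per the labels' protocols. The values are log2 intensities that the authors deposited; the log2 scale and the quantile normalization were read from the values, since sorted values of any pair of arrays differed by at most 0.01. The authors' software is not given in the sources used here. A raw signal table was left out: the names of its 15 sample columns fit none of the labels.

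Probe symbols came from the platform annotation: 34885 of 45281 probes carry 1 symbol, 18 several and 10378 none. The identifiers of 34807 were found in a mouse gene table, and 0 symbols changed. Background was the mode of all values, 6.80, and the values below it, reflected, gave an SD of 0.0729. Probes were tested when above 6.92, the 95% limit, on at least 5 arrays, which left 24861 probes. One mean per group was fitted with limma 3.58.1 in R 4.3.3 (variance trend over intensity, 12 residual degrees of freedom). Each comparison had its own Benjamini-Hochberg adjustment, with a threshold of 0.05, and the fit was tested on simulated data. No 2 arrays held identical values, and the highest correlation between arrays was 0.996. Sample numbers were not used as pairs in the main fit. The deviations of same-numbered samples correlated at a median of 0.10, over 0.1 for 7 of 15 pairs. For other numbers the median was -0.06, with 14 of 60 pairs over 0.1. Same-numbered samples were thus somewhat more alike, and a fit with a replicate block is among the alternatives.

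All members were named on every probe, and cell type markers past the threshold only as examples. Of each list, genes were read by their brightest tested probe, and up to 4 of smallest p were named besides receptors, inhibitors and partners of members. Likeness was the Pearson correlation of deviations from group means, with the 3 highest symbols kept. Members and lists were chosen with earlier results of these data known. Alternatives covered the variance model, dim-probe filter, samples in the fit, array weights, replicate block, background subtraction with an offset of 50, percentile scaling and leaving out arrays. Plots used matplotlib 3.10.9 in Python 3.11.15.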

Additional observations from a re-analysis of the deposited data

Results flagged for a closer look

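Of 39 groups of 5 arrays examined over the 13 member probes, 2 held an array far from the other 4, by Dixon's gap ratio above 0.71. Chance marks about 1 in 20 such groups. Fscn1 read 9.59 on DOX 2, against 7.99 to 8.30 on the other DOX arrays, a ratio of 0.806. The Angpt1 probe ILMN_2606451 read 6.95 on PBS 5, against 6.69 to 6.73 on the other PBS arrays, a ratio of 0.846, and that probe was above background on no other array.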

How the results depend on the processing

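Of 243 alternative fits of single members per comparison, the call and direction held in 240 for VEGF-B+DOX against DOX, 233 for VEGF-B+DOX against PBS and 228 for DOX against PBS. Against DOX 6 members passed in every alternative. Against PBS the count ran from 5 to 6 when each array was left out in turn and was 4 in the 11 arrays alike on the second component, an alternative chosen after seeing the data. There Angpt2 (0.22) and Esm1 (0.52) lost their calls, as Angpt2 did with all probes tested (adjusted p = 0.0628). In DOX against PBS 2 members passed without DOX 2 and VEGF-B+DOX 3, Aplnr at -0.95 and Fscn1 at -0.78, and 0 to 2 when each array was left out. Probes passing there in all, 80 as reported, numbered 53 with no variance trend, 201 with array weights, 677 without DOX 2 and VEGF-B+DOX 3, 143 with the second component as a block, 1 in the 11 arrays, and 2 to 487 leaving out each array (2 without DOX 1, 487 without DOX 2). In VEGF-B+DOX against DOX array weights gave 3601 in place of 2383. The causes were not tested.

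Directions that turned were all of folds that passed in no fit. In DOX against PBS, Tek stood at -0.026 with array weights and -0.047 in the 11 arrays, and at -0.054 to 0.056 leaving out each array. Tie1 stood at -0.0875 to 0.035 and Plvap at -0.085 to 0.0625 leaving out each array, and Plvap at 0.0625 without DOX 2 and VEGF-B+DOX 3. In VEGF-B+DOX against DOX, Angpt1 stood at -0.202 to 0.0085 leaving out each array, and Adm at -0.013 with array weights and -0.015 in the 11 arrays. Plvap stood at -0.016 in the 11 arrays in VEGF-B+DOX against PBS.

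With the replicate block, 6, 6 and 0 members passed in VEGF-B+DOX against DOX, VEGF-B+DOX against PBS and DOX against PBS, and 2595, 3135 and 81 probes in all, so the block changed no member's call. Scaling to the 75th percentile left the values as they were. Signal over background limits Apln, 2 Angpt1 probes and 1 Angpt2 probe, which allow no comparison.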
